A study of Caenorhabditis elegans with 34 samples.

Results

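The 5 genes described here, spe-18, spe-43, spe-57, spe-58 and pei-1, are genes of Caenorhabditis elegans sperm development. They were taken by name: every probe whose gene symbol, updated by gene ID in the reference gene table, was one of these was kept. Each gene had 1 probe, so the set held 5 of the 13323 probes on the arrays and 5 of the 5543 named genes. The reference gene table (assembly WBcel235) places spe-18 (sequence name F32A11.3) and spe-57 (R03D7.8) on chromosome II. It places spe-43 (F09E8.1) and pei-1 (F27C8.5) on chromosome IV, and spe-58 (F52F12.5) on chromosome I. None of the 5 lies on the X chromosome, which held 16.4% of the 5559 probes that matched the table.

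The study compared messenger RNA on 34 spotted arrays with a red and a green channel each. On 29 arrays synchronized whole worms were set against a reference pool. Some titles name this pool as N2 mixed control, N2 being the wild type, and others name no strain for it. Wild-type N2 worms were taken at larval stage L2 (3 arrays), L3 (4), L4 (4) and young adulthood (3). Worms carrying the mutation glp-4(bn2) were taken at the same stages (3, 4, 4 and 4). The adults named below are these young adults. The labels use glp-4(bn2) as the strain with no germ line. No growth temperature is listed for the worms of the 29 reference arrays. The remaining 5 arrays compared fem-3(q23) worms, in red, directly with fem-1(hc17) worms, in green. Per the labels, at 25 °C the gain-of-function allele fem-3(q23) gives worms that make sperm throughout, and the loss-of-function allele fem-1(hc17) gives worms that make oocytes and no sperm, with a female soma in both. The labels also state that these worms were grown at 15 °C, and they give no time for a shift to 25 °C. No dye-swapped array was analysed, so the dye and the strain cannot be told apart in this comparison. The alleles bn2, hc17 and q23 are temperature-sensitive and do not remove the gene, so the RNA level of the mutated gene was not used as a check of the labels.

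In the C. elegans hermaphrodite the germ line makes sperm during the last larval stage and then switches to oocytes, so the adult stores the sperm that it made as a larva. The sex-determination genes fem-1 and fem-3 are needed for sperm fate: without FEM-1 germ cells become oocytes, and with overactive FEM-3 they go on becoming sperm. The genes called spe are named for mutants defective in spermatogenesis. SPE-18 is an intrinsically disordered protein that helps major sperm protein assemble into fibrous bodies in developing spermatocytes. SPE-43 is needed when a round spermatid is activated into a crawling spermatozoon. PEI-1 is a component of germ granules in sperm that carry small-RNA pathway proteins through spermatogenesis. Synthesis of RNA stops before the spermatid stage, so transcripts of such genes are made in the germ line before and during meiosis.

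Values are given as log2 ratios, worm over reference pool on the 29 reference arrays and fem-3 over fem-1 on the 5 fem arrays. The sources used here do not state the base of the logarithm, which was taken as 2. The median over 5 germ line genes (mip-1, mip-2, lotr-1, tost-1 and syp-6) was 0.69 to 1.03 in wild-type adults and -2.33 to -1.63 in glp-4 adults. These genes were chosen with earlier results of these data known, so the medians describe the groups and cannot check the strain labels. Between 10155 and 11696 probes had a value on a reference array, and between 12215 and 13295 on a fem array. The labels of 4 reference arrays disagree about the stage: wild-type L4 replicates 1 and 4, glp-4 L2 replicate 1 and glp-4 adult replicate 1. The reference pool is worded as a mixed control on all adult arrays and as REF-vjr on all L2 arrays, with both wordings at L3 and L4. The title of fem replicate 3 is that of replicate 2 with a repeat mark added, and does not say which sample was repeated. Fem replicate 1 was reconstructed, with only its normalized ratios valid per the labels. In whole worms, fewer cells of a type and less RNA per cell cannot be told apart.

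Coverage differed among the 5 genes. A value was present on 29 of 29 reference arrays for spe-18, on 27 for spe-43, on 25 for pei-1, on 23 for spe-57 and on 11 for spe-58. On the fem arrays spe-18, spe-43 and pei-1 had 5 values, spe-57 had 4 and spe-58 had 3. A probe was tested between groups only with at least 2 values in each, or with at least 3 fem values. All 5 genes could therefore be tested between fem-3 and fem-1, while spe-58 could be tested in no comparison of the reference arrays. The sources used here do not state why a value is missing.

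The first comparison asked how sperm-making and oocyte-making worms differ. All 5 genes were higher in fem-3 than in fem-1 worms, on every array with a value, and all 5 passed the test (limma, Benjamini-Hochberg adjusted p under 0.05 over 13284 probes). They fell into a pair of size classes, spe-18 and spe-58 at a mean log2 ratio above 5 and the other 3 between 2.27 and 2.52. Among all probes tested, 19.2% were called higher in fem-3 worms, and this became 14.4% when each array was centred on its median. The calls of the 5 genes stood under either scaling. Since replicate 3 may be a repeat of the sample of replicate 2, n counts arrays and may exceed the number of separate samples. With these replicates averaged into 1 value, all 5 genes were still called. The median of all probes was 0.16 as deposited and 0.02 after centring, so the genes lay well above either centre.

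The gene of the fibrous body protein SPE-18 gave log2 ratios of 4.73, 5.75, 5.21, 5.66 and 5.51 on fem replicates 1 to 5. The reconstructed replicate 1 was the lowest of the 5 and still far from 0. The mean was 5.37 ± 0.18 (SE of the fit, n = 5, limma adjusted p = 4.43e-06), with a 95% interval of 4.94 to 5.81. With replicates 2 and 3 averaged the mean was 5.35 (limma adjusted p = 3.2e-05). It ranked as number 62 of the 13284 probes from the highest ratio down.

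For spe-58, log2 ratios of 4.79, 5.54 and 4.71 were listed on fem replicates 3, 4 and 5. Replicates 1 and 2 had none. The mean of 5.01 ± 0.25 (SE of the fit, n = 3, limma adjusted p = 0.000159) ranked as number 83, and its 95% interval of 4.38 to 5.65 overlapped that of spe-18. The difference between the pair of genes was not tested.

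The gene of the sperm granule protein PEI-1 had log2 ratios of 1.98, 1.53, 3.53, 3.23 and 2.33, the widest spread of the 5 genes (SD 0.84). Replicate 3 was the highest and replicate 2 the lowest, although their titles differ only by the repeat mark of replicate 3. The mean was 2.52 ± 0.31 (SE of the fit, n = 5, limma adjusted p = 0.00106).

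For spe-43, the sperm activation gene, the ratios were 1.74, 3.22, 1.77, 2.90 and 2.28. Here replicate 2 was the highest and replicates 1 and 3 were the lowest, so replicates 2 and 3 stood in the opposite order to that of pei-1. The mean was 2.38 ± 0.25 (SE of the fit, n = 5, limma adjusted p = 0.000583). For spe-57 the ratios on replicates 2 to 5 were 2.38, 2.10, 2.69 and 1.90, with a mean of 2.27 ± 0.19 (SE of the fit, n = 4, limma adjusted p = 0.000407). The 95% intervals of pei-1 (1.79 to 3.25), spe-43 (1.78 to 2.99) and spe-57 (1.81 to 2.73) nearly coincided, and each ended below the intervals of spe-18 and spe-58.

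**Figure D1:**
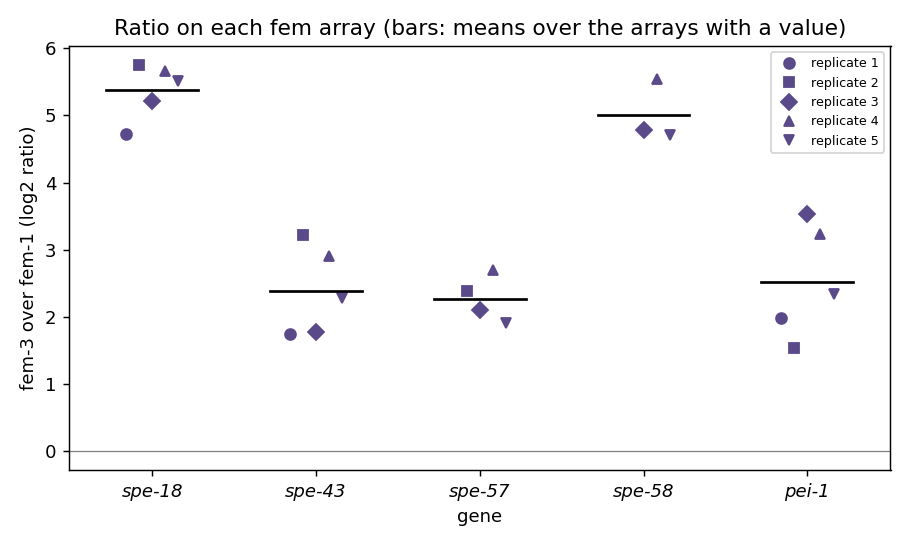
Log2 ratio of fem-3 over fem-1 worms (vertical axis) for each of the 5 genes on each fem array, with 1 marker shape per replicate and bars at the means. Every point lies above 0, spe-18 and spe-58 between 4.71 and 5.75 and the other 3 genes between 1.53 and 3.53.

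The second comparison asked at which stages RNA levels differ between wild-type and glp-4 worms of the same stage. The absence of a germ line in the glp-4 worms is taken from the labels. Among the 4 genes that could be tested, spe-18 and pei-1 were higher in wild type at L4 and in adults, and spe-43 and spe-57 were called at no stage. At L4, 2 of 4 genes were called higher, where 11.8% of the 11220 probes tested were. In adults 2 of 4 were called higher, where 20.3% of the 11402 probes tested were. At L3 none of 4 was called, where 3.23% of probes were called in either direction, and at L2 none of 3 was, where 0.419% were.

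Of the 4 genes that could be tested, spe-18 had the widest range over the reference arrays. In wild type its log2 ratios to the reference pool were -0.13, 0.02 and -0.03 at L2, and 0.78, 1.20, 0.47 and -0.22 at L3. They were 2.89, 2.41, 2.62 and 1.90 at L4, and 1.41, 3.09 and 1.74 in adults (replicates 2, 3 and 4). The L4 and adult arrays thus lay above every L2 and L3 array, and L3 replicate 4 was the only L3 array below 0.

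In glp-4 worms the spe-18 ratios were -0.66, -0.32 and -0.19 at L2 and -0.52, -1.15, 0.03 and -0.54 at L3. They were -0.32, -0.67, -0.36 and -0.98 at L4, and -0.21, -0.59, -0.70 and -0.52 in adults. These 15 arrays stayed between -1.15 and 0.03 at all stages, and the wild-type and glp-4 arrays overlapped at L3 and at no other stage.

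The strain difference of spe-18 in log2 was 0.34 ± 0.37 at L2 (limma adjusted p = 0.846) and 1.10 ± 0.32 at L3 (adjusted p = 0.055). It was 3.04 ± 0.32 at L4 (limma adjusted p = 2.04e-07, number 130 of 11220 probes from the highest) and 2.59 ± 0.34 in adults (adjusted p = 2.39e-06). Errors are standard errors of the fit, with 3 to 4 arrays a group. The L3 value lay just outside the threshold. It passed with the batch number as a block (1.10, limma adjusted p = 0.0326), with the reference wording as a block (adjusted p = 0.0387) and after quantile normalization. It also passed when either wild-type L3 replicate 4 or glp-4 L3 replicate 3 was left out, with adjusted p-values from 0.0157 to 0.924 over the 19 alternatives.

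The L4 difference of spe-18 was nearly the same size within each wording of the reference. It was 2.98 on the arrays of the mixed control wording (limma adjusted p = 0.112, with 2 arrays a group) and 3.10 on those of the REF-vjr wording (adjusted p = 0.00391). In the mixed control fit limma called 0 of 10296 probes, and 1964 had an unadjusted p under 0.05.

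For pei-1 the wild-type ratios were 0.24 and -0.25 at L2 (replicates 1 and 3) and 0.28, 0.47 and -0.54 at L3 (replicates 1, 2 and 4). They rose to 1.70, 1.24, 1.87 and 1.42 at L4, and were 0.58, 1.34 and 0.61 in adults. As with spe-18, every L4 array lay above every L2 and L3 array, L3 replicate 4 was the lowest of its group and adult replicate 3 the highest of its own.

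In glp-4 worms pei-1 stayed near 0, the level of the reference pool. The ratios were 0.16, 0.15 and 0.32 at L2, and -0.14, -0.61 and -0.03 at L3 (replicates 1, 2 and 4). They were 0.08, -0.27 and 0.07 at L4 (replicates 2 to 4) and -0.12, -0.59, 0.11 and -0.10 in adults. The arrays of the strains did not overlap at L4 and in adults, and overlapped at L2 and L3.

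The strain difference of pei-1 in log2 was -0.21 ± 0.30 at L2 and 0.33 ± 0.27 at L3 (limma adjusted p = 0.904 and 0.6). It was 1.60 ± 0.25 at L4 (limma adjusted p = 0.000112) and 1.02 ± 0.25 in adults (adjusted p = 0.00311). On the arrays of the mixed control wording alone the L4 difference was 1.26 (limma adjusted p = 0.149). The gene had too few values on the arrays of the REF-vjr wording to be tested there.

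**Figure D2:**
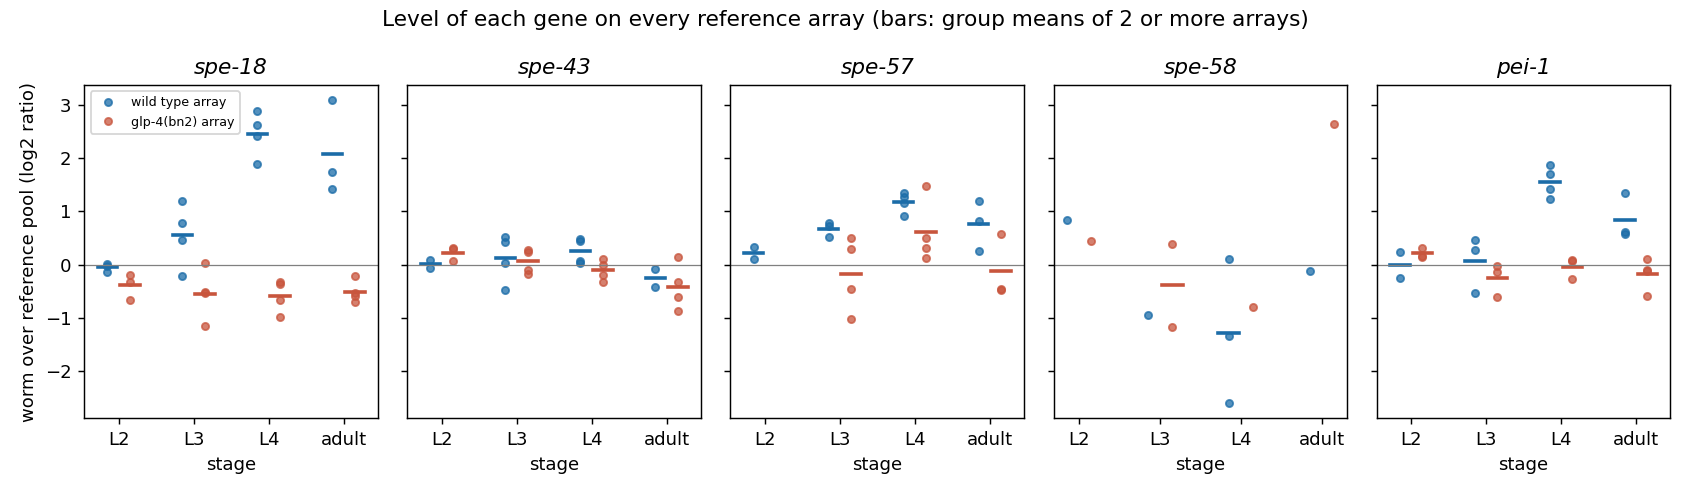
Log2 ratio of worm over reference pool (vertical axis) by stage for each gene, with a point per array, wild type in blue and glp-4(bn2) in red, and bars at the means of groups with at least 2 values. Wild-type spe-18 and pei-1 arrays separate from glp-4 arrays at L4 and in adults, while spe-43 stays between -0.86 and 0.52 throughout.

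For spe-57 the wild-type ratios were 0.10 and 0.34 at L2, 0.51, 0.78 and 0.72 at L3, 1.16, 1.34, 0.92 and 1.27 at L4, and 0.82, 1.20 and 0.26 in adults. Those of glp-4 worms were 0.29, -0.45, 0.50 and -1.03 at L3, 0.31, 0.13, 0.50 and 1.48 at L4, and -0.45, 0.57 and -0.48 in adults, with no value at L2. The wild-type arrays were closer together than the glp-4 arrays at L3 (SD 0.14 against 0.70) and at L4 (SD 0.18 against 0.60). In adults the SDs were nearer to each other, 0.47 in wild type and 0.60 in glp-4 worms. At L4 the glp-4 array of replicate 4 was above every wild-type array.

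The strain difference of spe-57 in log2 was 0.84 ± 0.36 at L3, where the arrays of the strains did not overlap, yet it missed the threshold (limma adjusted p = 0.232). It was 0.57 ± 0.34 at L4 (adjusted p = 0.278) and 0.88 ± 0.39 in adults (adjusted p = 0.08). The adult value passed without glp-4 adult replicate 3 or without wild-type adult replicate 4, with adjusted p-values from 0.024 to 0.238 over the alternatives. The 95% interval at L4, -0.14 to 1.28, held both 0 and differences as large as the L3 and adult values.

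For spe-43 no group stood apart. Wild-type ratios were -0.06 and 0.09 at L2, 0.52, -0.48, 0.42 and 0.02 at L3, 0.48, 0.03, 0.07 and 0.44 at L4, and -0.09 and -0.41 in adults. In glp-4 worms they were 0.06, 0.29 and 0.30 at L2, 0.28, -0.18, 0.24 and -0.11 at L3, -0.32, -0.19, -0.01 and 0.10 at L4, and -0.33, 0.14, -0.86 and -0.60 in adults. The strains overlapped at every stage.

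The strain difference of spe-43 in log2 was -0.20 at L2, 0.06 at L3, 0.36 ± 0.22 at L4 (limma adjusted p = 0.283) and 0.16 ± 0.27 in adults (adjusted p = 0.661). The 95% interval at L4 was -0.09 to 0.81. The gene with a log2 excess of 2.38 in fem-3 over fem-1 worms thus showed no called excess in wild-type over glp-4 worms.

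For spe-58 the reference arrays gave 11 scattered values. The wild-type ratios were 0.84 at L2, -0.95 at L3, 0.11, -2.60 and -1.34 at L4 and -0.13 in an adult. In glp-4 worms they were 0.45 at L2, 0.39 and -1.17 at L3, -0.79 at L4 and 2.64 in an adult. The highest of the 11 was a glp-4 adult and the lowest a wild-type L4 array, an order unlike that of the other genes, and no stage had 2 values in both strains. Spot intensities were not used, so a ratio of a dim spot cannot be told from one of a bright spot.

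**Figure D3:**
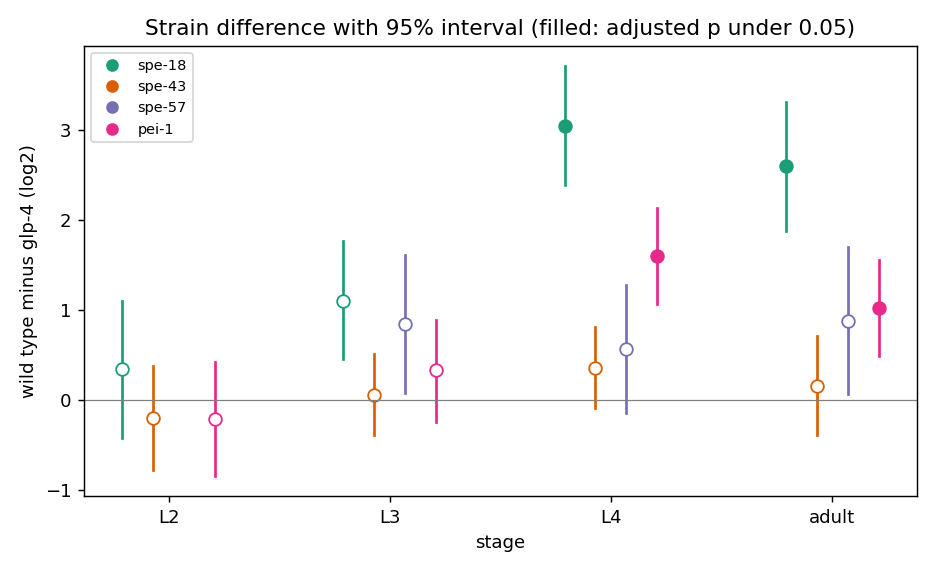
Fitted strain difference, wild type minus glp-4 in log2 (vertical axis), for 4 genes at each stage, with vertical lines for the 95% intervals and filled points for an adjusted p under 0.05. The filled points are spe-18 at L4 (3.04) and in adults (2.59) and pei-1 at L4 (1.60) and in adults (1.02).

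Within each strain the genes were then followed from stage to stage. In wild type 2 of the genes rose from L3 to L4. Both spe-18, by 1.90 ± 0.32 (limma adjusted p = 0.000222), and pei-1, by 1.49 ± 0.25 (adjusted p = 0.000484), were higher in log2 at L4, without overlap of the arrays. That is 2 of 4 genes, where 5.39% of 11121 probes were called higher. The values of spe-57 (0.51 ± 0.36, adjusted p = 0.495) and spe-43 (0.13 ± 0.22, adjusted p = 0.805) did not pass. L3 and L4 arrays carried both wordings of the reference, and with the wording as a block the rises of spe-18 and pei-1 were 1.90 and 1.46.

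From L2 to L3 none of the 4 genes was called in wild type, where 0.181% of 10487 probes were called in either direction. The largest of these values was 0.61 for spe-18 (95% interval -0.10 to 1.32). All L2 arrays have the REF-vjr wording, so a step from L2 is also partly a step between wordings.

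From L4 to the adult all 4 wild-type values were below 0 and 1 was called. The median of all probes tested in this step was itself below 0, at -0.125. For pei-1 the step, adult minus L4, was -0.71 ± 0.25 in log2 (limma adjusted p = 0.0485), where 11.8% of 11255 probes were called lower. Of all calls in this step 46.4% were higher, and 61.8% after quantile normalization. The arrays overlapped, since adult replicate 3 at 1.34 was above L4 replicate 2 at 1.24. The call was lost in 11 of 16 alternatives, among them the fits without wild-type adult replicate 2 or 4 and without wild-type L4 replicate 1, 3 or 4 (limma adjusted p from 0.0143 to 0.194 over all 16). With the reference wording as a block the value was -0.62 (adjusted p = 0.117). For spe-18 the step was -0.38 with a 95% interval of -1.08 to 0.33, for spe-57 -0.42 and for spe-43 -0.51 (adjusted p = 0.474, 0.454 and 0.183). After quantile normalization the spe-18 value was 0.01.

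In glp-4 worms none of the 3 or 4 genes tested was called at any step, while 10.3% of probes were called in either direction from L2 to L3, 0.367% from L3 to L4 and 8.04% from L4 to the adult. The spe-18 steps were -0.16, -0.04 and 0.08 in log2 and those of pei-1 were -0.47, 0.22 and -0.13. The largest were those of spe-57, 0.78 ± 0.34 from L3 to L4 (limma adjusted p = 0.654) and -0.73 ± 0.36 from L4 to the adult (adjusted p = 0.251).

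The change of the strain difference between stages was tested as an interaction. Between L3 and L4 the excess of spe-18 in wild type grew by 1.94 ± 0.45 in log2 (95% interval 1.01 to 2.87, limma adjusted p = 0.0149), where 2.47% of 10936 probes were called higher. It passed under all 25 alternatives, with adjusted p-values from 0.0056 to 0.0462. For pei-1 the value was 1.27 ± 0.37 (95% interval 0.50 to 2.04, adjusted p = 0.0833), which passed without wild-type L3 replicate 2 (adjusted p = 0.0442) and in no other alternative. For spe-43 the value was 0.30 and for spe-57 -0.27.

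From L4 to the adult, the change of the strain difference was -0.45 for spe-18 (95% interval -1.42 to 0.51) and -0.58 for pei-1 (-1.33 to 0.17), with none of the 4 genes called, where 6.58% of probes were. From L2 to L3 it was 0.76 for spe-18, 0.54 for pei-1 and 0.26 for spe-43. In that interaction limma called 0 of 10181 probes, and 795 had an unadjusted p under 0.05.

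Ordered by mean level, spe-18 stood highest in wild-type L4 (2.46 ± 0.42, SD, n = 4) and wild-type adults (2.08 ± 0.89, SD, n = 3), which did not differ beyond their spread. Wild-type L3 (0.56 ± 0.60, SD, n = 4) and L2 (-0.05 ± 0.08, SD, n = 3) followed, and then the 4 glp-4 groups between -0.58 and -0.39, whose neighbours did not differ beyond their spread. For pei-1 wild-type L4 came first (1.56 ± 0.28, SD, n = 4) and wild-type adults next (0.84 ± 0.43, SD, n = 3), apart by more than either SD although the arrays overlapped. The other 6 groups lay between -0.26 and 0.21, and none differed from its neighbour beyond the spread.

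For spe-57 the order also began with wild-type L4 (1.18 ± 0.18, SD, n = 4), then wild-type adults (0.76 ± 0.47, SD, n = 3), wild-type L3 (0.67 ± 0.14, SD, n = 3) and glp-4 L4 (0.60 ± 0.60, SD, n = 4). It ended with glp-4 adults and glp-4 L3 at -0.12 and -0.17. For spe-43 the groups ran from 0.26 in wild-type L4 to -0.41 in glp-4 adults. No neighbours in these orders differed beyond the larger of their SDs.

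Across single arrays spe-18 and pei-1 ran together, with a Pearson correlation of 0.90 over 25 arrays. These arrays share the 8 groups, a reference and, per gene pair, the same hybridisation, so the correlation is a description of them. It was 0.59 between spe-18 and spe-57 (23 arrays), 0.63 between pei-1 and spe-57 (19), and 0.26 between spe-18 and spe-43 (27). Pairs with spe-58 had correlations of -0.50 to -0.35 over 9 to 11 arrays.

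**Figure D4:**
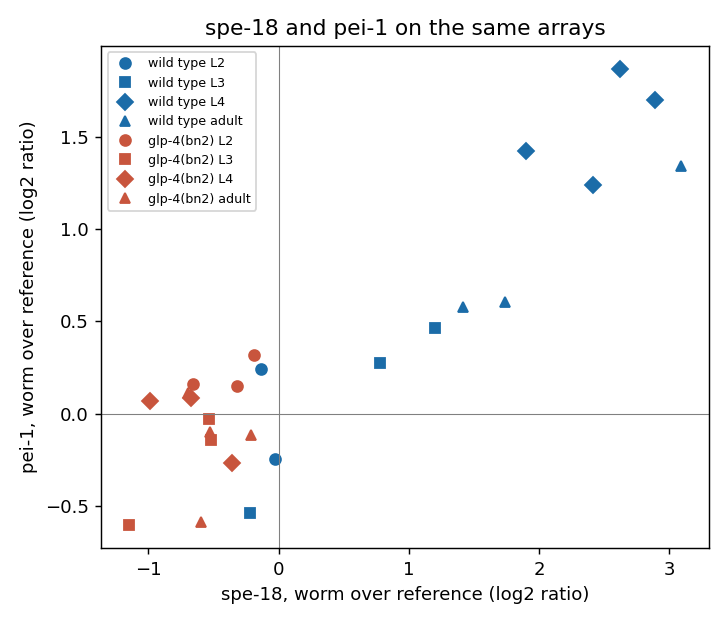
Log2 ratio of pei-1 (vertical axis) against that of spe-18 (horizontal axis) on the 25 reference arrays with both values, with wild type in blue, glp-4(bn2) in red and 1 marker shape per stage. The wild-type L4 and adult arrays lie at the upper right, spe-18 above 1.4 and pei-1 above 0.5, and the glp-4 arrays lie in the lower left around 0.

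By the same measure, over at least 24 shared arrays, the gene-class symbols whose levels were most like spe-18 were the tau-tubulin kinase family gene ttbk-4 (0.95 over 29 arrays), nsph-3.2 (0.94 over 29) and msrp-2 (0.93 over 28), of 766 candidates. On the fem arrays, which the correlation did not use, their mean log2 ratios were 3.98, 3.21 and 4.93. Those most like pei-1 were ttbk-4 (0.93), spe-18 (0.90) and the cylicin-like gene cylc-2 (0.87), each over 25 arrays and of 719 candidates. Those most like spe-43 were ift-139 (0.68), nonu-1 (0.68) and cank-26 (0.67), each over 27 arrays and of 753 candidates. Their mean fem ratios were 0.48, -0.35 and 0.40, against 2.38 for spe-43 itself. For spe-57 and spe-58 no gene shared enough values.

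A list of 8 other sperm and male germ line genes present on the arrays was set beside the 5: spe-36, spe-49, spe-51, spe-55, gcna-1, cylc-2, melo-3 and spsp-1. The list was chosen with earlier results of these data known, so its counts describe these genes and are not independent support. In fem-3 over fem-1 worms 6 of 8 were called higher, where 19.2% of all probes were, and none lower, with a median log2 ratio of 2.14 against 0.16 for all probes tested. Those with the smallest adjusted p were spsp-1 (4.63 ± 0.13), melo-3 (6.06 ± 0.18), cylc-2 (5.61 ± 0.25) and spe-49 (1.98 ± 0.20), with limma adjusted p-values of 3.17e-06, 3.45e-06, 1.04e-05 and 0.000482. The gene spe-51, whose protein acts at fertilization, had 2.01 and spe-36, which also acts at fertilization, 0.69, both called. The value of spe-55 was 2.26 ± 0.79 (adjusted p = 0.0732) and that of gcna-1, a germ cell nuclear protein gene, -0.21.

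In wild type over glp-4, 5 of 7 tested genes of this list were called higher at L4 (median 0.87, all probes -0.06), where 11.8% of all probes were. In adults 4 of 7 were (median 1.76, all probes -0.17), where 20.3% of all probes were. These counts and medians include gcna-1, called at L4 (0.68) and in adults (1.78) but not between fem-3 and fem-1 worms (-0.21). They are therefore not values of genes raised in sperm-making worms alone, and the rise of the median from L4 to adults is not read as a rise of such genes. None of 7 was called at L3 and none of 6 at L2. At L4 cylc-2 was at 4.19, melo-3 at 3.73 and spsp-1 at 3.41, above spe-18 at 3.04. The sperm genes with fem ratios near 2 were at 0.87 (spe-49, called) and -0.14 (spe-51, not called), beside 1.60 for pei-1, 0.57 for spe-57 and 0.36 for spe-43. In wild type from L3 to L4, where 5.39% of all probes were called higher, 3 of 7 were (cylc-2 at 3.31, melo-3 at 2.97 and spsp-1 at 2.39).

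From wild-type L4 to the adult, spsp-1 fell by 1.33 and spe-49 fell by 0.95 in log2, and gcna-1 rose by 0.77. These are 2 of 7 genes called lower and 1 of 7 higher, where 11.8% and 10.2% of all probes were. On the adult arrays the genes did not rank the replicates alike. Replicate 3 was the highest of the 3 for spe-18 (3.09), pei-1 (1.34), spe-57 (1.20) and spe-49 (1.06), and the lowest for spsp-1 (0.27) and melo-3 (1.86). At L3, wild-type replicate 4 was the lowest for spe-18, pei-1, cylc-2 (-1.90), melo-3 (-1.27), spsp-1 (-0.98), spe-36 (-0.62) and spe-49 (-0.17). It was not the lowest for spe-57 (0.72), spe-43 (0.02), spe-51 (0.01) and gcna-1 (0.10).

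**Figure D5:**
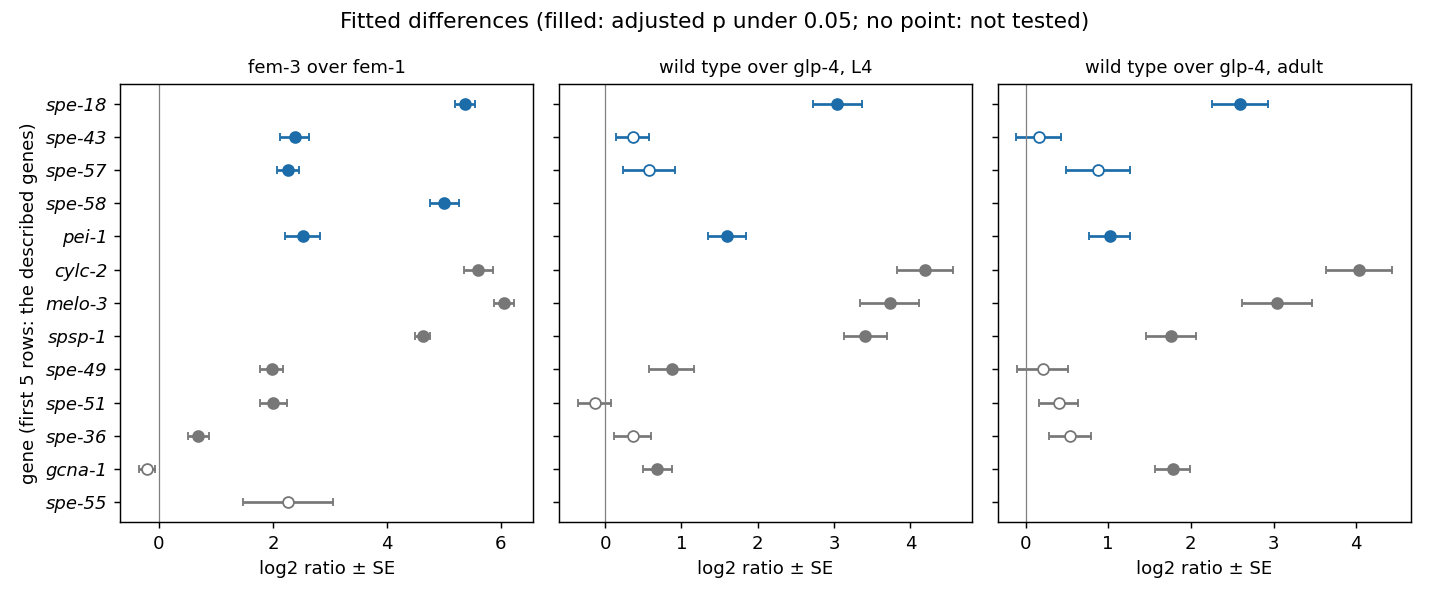
Fitted log2 differences with standard errors (horizontal axes) for the 5 genes in blue and the 8 genes of the sperm and male germ line list in grey. The panels show fem-3 over fem-1 and wild type over glp-4 at L4 and in adults. Filled points passed an adjusted p of 0.05 and a missing point was not tested. The genes furthest to the right in the fem panel (melo-3 6.06, cylc-2 5.61, spe-18 5.37 and spsp-1 4.63) are also the furthest to the right at L4, and spe-58 (5.01) could be tested in the fem panel alone.

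Some genes of lists for other cells were called in the same comparisons, and others were not. Of all probes, 2.15% were called higher in wild type at L3, 11.8% at L4 and 20.3% in adults, and 8.07% were called lower at L4, 19.6% in adults and 15.5% in fem-3 over fem-1 worms. The germ line list was higher in wild type for 3 of 5 genes at L3, 4 of 5 at L4 and 5 of 5 in adults, and in fem-3 over fem-1 worms 4 of 5 were lower. Its median per array was -0.71 to 0.38 in wild-type L4 and -2.03 to -1.74 in glp-4 L4. The oocyte list (memi-3, oops-1, cpg-19, cpg-20 and cpg-22) had 2 of 5 genes lower in fem-3 worms, 2 of 5 higher in wild type at L4 and 2 of 5 higher in adults. In each of these comparisons the called genes were memi-3 and oops-1, and no cpg gene was called. At L4 memi-3 was at 1.42 ± 0.34 (limma adjusted p = 0.00383) and oops-1 at 1.42 ± 0.37 (adjusted p = 0.00832). In adults cpg-22 was at -0.89 and cpg-19 at -0.75. From wild-type L4 to the adult memi-3 (1.91) and oops-1 (1.64) were called higher. At that step cpg-19 (-2.47) and cpg-22 (-2.11) were called lower, where 10.2% of all probes were higher and 11.8% lower. The list had medians per array of -0.47 to -0.22 in wild-type adults and -0.83 to -0.45 in glp-4 adults. Its cpg genes did not move like memi-3 and oops-1, and cpg-22 and cpg-19 had their highest group means in glp-4 L4 (1.92 and 1.41). The medians of this list are therefore not a measure of oocytes. Of 27 tested carboxylesterase genes of the cest class, taken as the somatic list, 11 were lower in wild type at L4 and 11 in adults, and 1 was higher in adults. In fem-3 over fem-1 worms 3 of 29 genes of this class were higher, where 19.2% of all probes were. The medians of the sperm list per array were 0.80 to 1.55 in wild-type L4, 1.01 to 1.06 in wild-type adults and -0.75 to 0.17 over the glp-4 arrays. They include gcna-1, which was not called between fem-3 and fem-1 worms (-0.21). On wild-type adult replicate 2 the median was the gcna-1 value itself (1.01). The part of the other cells in the changes of the 5 genes was not tested.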

How the data were processed

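The authors deposited 1 log ratio per probe and array, taken as log2 of red over green; the sources used here do not state the base, the normalization or the spot filters. The reference pool was in red on 29 arrays, per the labels, and their signs were turned to worm over reference. Values were used without further scaling. Probes were fitted with limma 3.58.1 (R 4.3.3) as 8 group means over the 29 reference arrays, with the 5 fem arrays fitted alone against 0. Tests were two-sided and adjusted by Benjamini-Hochberg over all probes tested in a comparison, with a threshold of 0.05. The fit was tested on simulated data. Precision is limited by the number of arrays, and a p-value reflects only the spread between arrays, numbered by worm batch in the labels, which may be partly technical; glp-4 L2 replicate 2 pools batches 2 and 4.

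The 5 genes and the lists were chosen with earlier results of these data known. Beside the 5 genes, the text names up to 4 called sperm-list genes with the smallest adjusted p per comparison and, for each of the 5, the 3 best-correlated gene-class symbols; other sperm-list genes were named after their values were seen. Same-numbered arrays deviated from their group means with correlations of -0.19 to 0.35 over 35 pairs, so numbers were not taken as pairs. Alternatives covered scaling, the prior, blocks, reference wording, disputed labels, complete probes and single arrays left out. No sequence was printed and no promoter was searched.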

Additional observations from a re-analysis of the deposited data

Results flagged for a closer look

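A difference between stages in the strain effect, tested as an interaction in limma, singled out 8 results among the 5 genes and the sperm, germ line and oocyte lists. Of all probes tested, 288 of 10936 were called in the L3 to L4 interaction (2.47% higher and 0.165% lower). In the L4 to adult interaction 727 of 11043 were called (4.88% higher and 1.70% lower). Between L3 and L4 the excess of wild type over glp-4 grew in log2 by 1.94 for spe-18, 2.83 for spsp-1, 2.69 for melo-3 and 3.22 for cylc-2. From L4 to the adult it changed by -1.65 for spsp-1 and by 1.10 for gcna-1, so spsp-1 lost part of its L4 excess while gcna-1 gained. The germ line genes tost-1 and lotr-1 gained 2.35 and 1.34 at the same step (limma adjusted p = 0.00165 and 0.0381). The same adult step was -0.45 for spe-18 and was not called. A gap test for a single distant array found none in 59 gene and group combinations of the 5 genes and the sperm list, where chance gives about 1 in 20. The L2 groups, the wild-type adults and other groups with too few values could not enter this test.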

How the results depend on the processing

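No value of a gene that passed the threshold in either fit changed sign. With the batch number as a replicate block, spe-18 passed at L3 (1.10, limma adjusted p = 0.0326), so 1 of 4 genes was called there, and 0 of 4 were called from wild-type L4 to the adult; the block changed no other count of the 5 genes. At L3 the count was also 1 with the reference wording as a block and with quantile normalization, and 0 to 1 with single arrays left out. Among all probes, 257 of 11111 were called higher at L3 with the wording block, and 1.91% after quantile normalization. At L4 the count of 2 became 0 on arrays of the mixed control wording, where 0 of 10296 probes were called. It became 1 on those of the REF-vjr wording, where 545 of 10628 probes were called higher. The count was also 1 among the 3 genes with a value on every array compared. That last restriction also gave 1 of 2 for wild-type L4 over L3, and 3 of 3 for fem-3 over fem-1. From wild-type L4 to the adult the count of 1 became 0 with only the arrays compared, with the wording block and with centred arrays. It also became 0 with quantile normalization and without the 4 arrays whose labels disagree, and was 0 to 1 with single arrays left out. Among all probes, 1089 of 11247 were called lower in this step with the wording block, 9.70% after centring and 7.32% after quantile normalization. The count was 1 to 2 for the L3 to L4 interaction and 4 to 5 for fem-3 over fem-1 with single arrays left out, since spe-58 then could not always be tested.

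Counts over all probes moved more. Those called in wild type over glp-4 were 43 at L2 (0 to 341 over the alternatives), 359 at L3 (0 to 449), 2235 at L4 (0 to 2345) and 4544 in adults (3051 to 4749). Fem-3 over fem-1 had 4613 (2903 to 5002). The wild-type steps had 19 (0 to 78), 806 (268 to 990) and 2472 (471 to 2920), the glp-4 steps 1080 (240 to 1301), 41 (20 to 57) and 911 (488 to 1055), and the interactions 0 (0 to 46), 288 (186 to 485) and 727 (239 to 1121), in order of stage. The counts of 0 at L3 and L4 came from single wordings of the reference, where 516 to 1964 probes had an unadjusted p under 0.05. Those for L2 and for wild-type L3 over L2 came from fits of only the arrays compared. Centring moved the share of calls that were higher in fem-3 worms from 55.4% to 43.9%, and centring with scaling moved that of wild type over glp-4 at L2 from 53.5% to 76.4%. Centring moved that of glp-4 adult over L4 from 31% to 48.6%. Signal over background was not used, so dim probes carry an unknown error.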
